A study of Arabidopsis thaliana with 9 samples.

Results

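LHB1B2, LHCB4.1, PSAN and PSBW are 4 nuclear genes of Arabidopsis thaliana whose proteins sit in the photosystems and antennae of the chloroplast, and their transcripts were followed in roots on the ground and at a pair of moments of a jet flight. They were picked by name among the 16722 probe sets paired with exactly 1 gene, each has 1 probe set, and all 4 are described. The choice was made with their values on these arrays known. Their levels and differences are therefore given as a description, with no test.

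The seedlings were 10 days old, of the Wassilewskija background, and carried pCaMV35S:14-3-3κ:GFP, a 14-3-3 kappa protein fused to GFP under a broadly active promoter of cauliflower mosaic virus. Every group carried this transgene, so no plant without it was compared. Plants had grown on plates under 24 h of light per day, on medium with 0.5% sucrose, before transfer to Kennedy Space Center fixation tubes, which release RNAlater onto the seedlings when actuated. The ground group came from a tube fixed on the ground during the flight. By the labels' protocol, the first-actuated group was fixed during low-altitude acceleration, and the last-actuated group after a climb at 4 g and some 10 s of microgravity. In the design text of the series, by contrast, fixation is placed about 1.5 min after the plane was level again, with no distinction between the tubes. Roots were cut from fixed seedlings and measured on the Affymetrix AraGene 1.0 ST array, 3 arrays in each group, with all roots of a group from 1 tube. Tube and condition cannot be told apart, and the replicates show only how root pools from the same tube differ.

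The photosystems are the pigment and protein complexes of the thylakoid membrane that turn light into electron flow. Photosystem II draws electrons from water, photosystem I passes them on to ferredoxin, and light-harvesting chlorophyll a/b proteins feed both with excitation energy. Their core subunits are encoded in the chloroplast, while the antenna proteins and many small subunits are encoded in the nucleus and imported. Nuclear photosynthesis genes are strongly expressed in green shoots and weakly in roots. Roots grown in light can still form some chloroplasts, a process that depends on the light-signalling factors of the HY5 family and on GLK factors.

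All levels below are the deposited log2 values, on which a step of 1 is a 2-fold change, and differences are in log2 with limma's standard error (SE). The array medians lay between 3.27 and 3.35, and the correlation between any 2 arrays was 0.98 to 0.9895. The 4 members lay above the median of 3.40 that the named probe sets had for their mean over the 9 arrays. Each probe set can be compared between groups but not with another probe set.

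The antenna genes are described first. LHB1B2 (AT2G34420) encodes a chlorophyll a/b protein of the Lhcb1 family, which builds the main trimeric antenna of photosystem II. On the ground arrays it stood at 7.22, 6.89 and 6.88. On the first-actuated arrays it stood at 7.15, 8.45 and 8.11, and on the last-actuated arrays at 5.71, 6.15 and 5.95. The last-actuated arrays were the 3 lowest of the 9. The first-actuated group held the 2 highest values, but its replicate 1 lay within the ground range.

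The LHB1B2 group means were 6.999 ± 0.194 on the ground, 7.902 ± 0.670 in first-actuated roots and 5.938 ± 0.22 in last-actuated roots (SD, n = 3). First-actuated roots were thus 0.90 ± 0.28 (SE) above ground, a fold of 1.87, in arrays that overlapped. Leaving out first-actuated replicate 1 gave 1.28, and leaving out replicate 2 of that group gave 0.63. Last-actuated roots were lower than ground by log2 -1.06 ± 0.28, at 0.479 of the ground level, and lower than first-actuated roots by -1.96 ± 0.28, a 3.90-fold difference. Neither of these pairs of groups overlapped. The residual SD of LHB1B2 over the 9 arrays, 0.42, was larger than that of 98.8% of the probe sets tested, and most of it came from the first-actuated group.

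LHB1B2 lies beside LHB1B1 (AT2G34430) in the RefSeq gene order, and the Lhcb1 family holds near-identical copies. How much signal of other copies this probe set reads was not tested, so its values may be those of several Lhcb1 genes. LHB1B1 had no probe set paired with it alone and was not analysed here.

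LHCB4.1 (AT5G01530) encodes a minor antenna protein that links the trimeric antenna to the core of photosystem II. Its ground arrays stood at 5.85, 5.63 and 5.64. The first-actuated arrays stood at 5.52, 5.48 and 5.46, and the last-actuated arrays at 5.19, 5.32 and 5.19. The 3 groups formed 3 separate steps, with ground highest, last-actuated lowest and no overlap between any pair.

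The steps of LHCB4.1 were small. The first-actuated mean differed from ground by -0.22 ± 0.09, the last-actuated mean from ground by -0.47 ± 0.09, and the last-actuated mean from the first-actuated by -0.25 ± 0.09. The last-actuated level was 0.722 of that on the ground. Its SD within groups was 0.12, 0.03 and 0.08 in ground, first-actuated and last-actuated roots, and its residual SD was exceeded by most probe sets. Where LHB1B2 was highest in first-actuated roots, LHCB4.1 was highest on the ground.

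PSBW (AT2G30570) encodes a small membrane subunit of photosystem II, known for stabilising the complexes that photosystem II forms with its antenna. It stood at 6.92, 6.86 and 6.49 on the ground arrays. It stood at 7.08, 6.68 and 7.07 on the first-actuated arrays and at 6.35, 6.22 and 6.14 on the last-actuated arrays. The last-actuated arrays were the 3 lowest, while the ground and first-actuated arrays overlapped.

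The PSBW mean of last-actuated roots lay 0.71 log2 units under that of first-actuated roots (-0.71 ± 0.14), at 0.613 of its level. Against ground the last-actuated mean differed by -0.52 ± 0.14, and the first-actuated mean by 0.19 ± 0.14. The latter lay within the spread of the replicates, whose SD was 0.23 in each of those groups, and ranged from 0.05 to 0.32 when single arrays were left out. The order of the 3 means was that of LHB1B2, but the order of single arrays was not. Within the first-actuated group, replicate 2 was the highest array for LHB1B2 and the lowest for PSBW.

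PSAN (AT5G64040) encodes a subunit on the lumen side of photosystem I, known for its part in taking electrons from plastocyanin. Its ground arrays lay close together, at 5.95, 5.95 and 5.99. The first-actuated arrays stood at 5.33, 5.28 and 5.55, and the last-actuated arrays at 6.10, 5.97 and 6.37. The first-actuated arrays were the 3 lowest of the 9, and ground and last-actuated arrays overlapped.

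The PSAN order was therefore opposite to that of LHB1B2. The first-actuated mean differed from ground by -0.58 ± 0.12, at 0.668 of the ground level. The last-actuated mean was 0.76 ± 0.12 above the first-actuated, a fold of 1.70, and 0.18 ± 0.12 above ground. That last difference was smaller than the last-actuated SD of 0.20 (n = 3), and was 0.07 without last-actuated replicate 3.

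**Figure D1:**
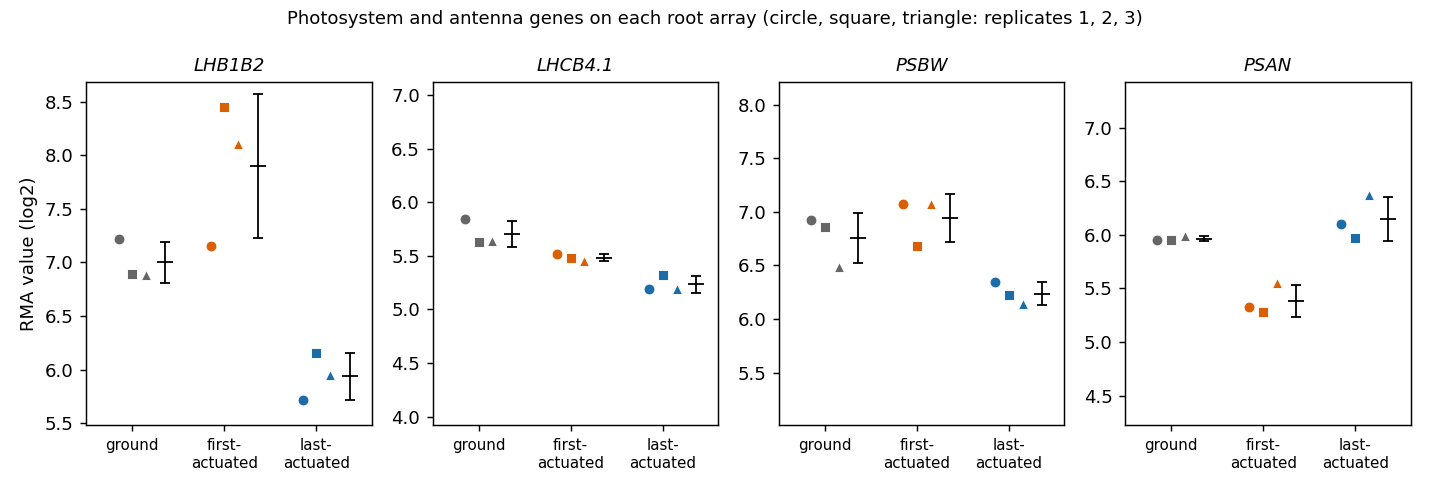
RMA values (log2, vertical axis, each panel spanning the same number of log2 units) of LHB1B2, LHCB4.1, PSBW and PSAN on the 9 root arrays, with the mean and SD of each group of 3 as a bar. LHB1B2, LHCB4.1 and PSBW were lowest in last-actuated roots, PSAN was lowest in first-actuated roots, and the first-actuated arrays of LHB1B2 ranged from 7.15 to 8.45.

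Set side by side, the 4 genes did not move as a block. First-actuated and ground arrays did not overlap in 2 of the 4 members, against 20.4% of the 17481 probe sets tested. Last-actuated and ground arrays did not overlap in 3 of 4, against 16.6%, and the in-flight groups did not overlap in 4 of 4, against 21.8%. The members were chosen with these values known, so nothing is read from the counts. Last-actuated means were below first-actuated means in 3 members and above them in PSAN. Both in-flight comparisons with ground use the same ground arrays. In whole roots, fewer cells of a type and less RNA per cell cannot be told apart.

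The question whether other genes of photosynthesis moved in these roots was put to 92 genes listed by role. Of these, 16 had a probe set of their own, the 4 members among them. The lists too were chosen with earlier results of these data known, so the calls and shares below are not independent of those results. For the other 12, each comparison was tested with limma over all 17481 named probe sets with Benjamini-Hochberg adjustment. A gene was called at an adjusted p under 0.05. All roots of a group came from 1 tube, so p sets a difference between tubes against the spread of root pools within a tube. In every call tube and condition cannot be told apart. Against ground, 0 rose and 2 fell in first-actuated roots, HYH and PSBY, where 2.25% of all probe sets tested rose and 2.64% fell. In last-actuated roots 0 rose and 1 fell, HYH, where 0.927% of all probe sets rose and 0.881% fell. Between the in-flight groups limma called 0 of 12, where 6.73% of all probe sets were called. An unadjusted limma p under 0.05 was more frequent against ground. For the first-actuated tube 6 of 12 genes (50.0%) had one, against 18.4% of all probe sets. For the last-actuated tube it was also 6 of 12, against 13.0%, and between the in-flight groups 2 of 12 (16.7%), against 19.6%. Arrays did not overlap in 5, 5 and 3 of the 12 (41.7%, 41.7% and 25.0%) in the same order. For all probe sets these shares were 20.4%, 16.6% and 21.8%. Whether the shares of the 12 exceed those of all probe sets was not tested.

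The median difference of the 12 genes was -0.09 in first-actuated roots against ground, -0.08 in last-actuated roots against ground and -0.04 between the in-flight groups. Over all probe sets tested the medians were 0.01, 0.00 and 0.00. The single differences of the 12 genes ran from -1.11 to 0.24, from -0.81 to 0.26 and from -0.31 to 0.48 in these comparisons. The range between the in-flight groups was narrower than the -1.96 to 0.76 of the 4 members, which were chosen with those values known. All 4 members but only 7 of the 12 genes lay above the median of the probe set means, 3.40. The rest were dim, which limits what their differences can show.

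HYH (AT3G17609) encodes a bZIP transcription factor close to HY5 that acts in light signalling. Of 15 greening regulators listed, HYH alone had a probe set of its own, and HY5 and the GLK factors had none. HYH stood at 5.75, 6.20 and 5.98 on the ground arrays, at 4.95, 4.80 and 4.85 on the first-actuated arrays and at 5.40, 5.17 and 5.49 on the last-actuated arrays. The 3 groups did not overlap. HYH fell by 1.11 ± 0.13 in first-actuated roots, to 0.464 of its ground level (limma adjusted p = 0.00112, lower in 3 of 3 arrays). This call held under each of 15 alternative settings, with adjusted p from 0.000539 to 0.00913. The settings refit arrays from the same 3 tubes, so they cannot show whether other tubes would give the call.

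In last-actuated roots HYH fell by 0.62 ± 0.13 (limma adjusted p = 0.0396), a call lost in 12 of 15 alternative settings, with adjusted p from 0.0229 to 0.14. It was lost without each single array except ground replicate 1. Centring, counted apart from these 15 settings, kept the call (limma adjusted p = 0.0464). The last-actuated mean was 0.48 ± 0.13 above the first-actuated mean, which did not pass (limma adjusted p = 0.0523). HYH passed there in 6 alternative settings, with adjusted p from 0.0321 to 0.048: above the median of probe set means, under repeated quantile normalization, under centring, and without ground replicate 1, ground replicate 2 or last-actuated replicate 2. In the other settings it did not pass, with adjusted p up to 0.174. HYH thus had its lowest mean in the same group as PSAN, and in the group where LHB1B2 had its highest mean.

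The remaining subunits of the photosystems and antennae were few. PSBY (AT1G67740), a small photosystem II subunit gene, stood at 4.83 to 5.22 on the ground, 4.50 to 4.63 in first-actuated roots and 4.43 to 4.64 in last-actuated roots. It fell by 0.47 ± 0.12 in first-actuated roots (limma adjusted p = 0.045), a call lost in 12 of 15 alternative settings, with adjusted p from 0.0226 to 0.144. It was lost without each single array except ground replicate 3. Under centring, also counted apart, PSBY stayed called (limma adjusted p = 0.0365). Against ground its last-actuated difference of -0.49 ± 0.12 did not pass (limma adjusted p = 0.0681), and the in-flight groups differed by -0.02. PSBY, unlike PSBW, was at the same level in both in-flight groups within its spread.

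PSAE-1 (AT4G28750), whose protein helps to dock ferredoxin on photosystem I, stood at 3.86 to 4.40 on the ground, 3.61 to 4.03 in first-actuated and 3.49 to 3.56 in last-actuated roots. Its last-actuated difference from ground, -0.66 ± 0.15, did not pass (limma adjusted p = 0.0578). PSAE-1 passed without ground replicate 3 (adjusted p = 0.0207), without first-actuated replicate 1 (0.0478) and among probe sets above the median of the means (0.0327). The lowest mean of the 2 photosystem I genes measured was in first-actuated roots for PSAN and in last-actuated roots for PSAE-1. PSB27 (AT1G03600), which acts in the assembly and repair of photosystem II, differed from ground by -0.08 ± 0.18 and 0.23 ± 0.18, and ATPC1 (AT4G04640), the gamma subunit of the chloroplast ATP synthase, by -0.10 ± 0.16 and -0.39 ± 0.16 in first-actuated and last-actuated roots. Neither gene passed.

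The antenna genes LHCB4.2 (AT3G08940) and LHCB4.3 (AT2G40100) encode relatives of LHCB4.1. LHCB4.2 stood at 2.76 to 3.06 and LHCB4.3 at 2.88 to 3.07 over the 9 arrays, below every array median. Their differences in the 3 comparisons lay between -0.06 and 0.05 and did not pass. The steps of LHCB4.1 were therefore not seen in the probe sets of its relatives, which were too dim to show whether those genes changed.

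Among genes of carbon fixation, RCA (AT2G39730), which encodes Rubisco activase, was bright, at 7.996 to 8.17 on the ground, 8.27 to 8.41 in first-actuated and 8.27 to 8.42 in last-actuated roots. Its differences from ground, 0.24 ± 0.09 and 0.26 ± 0.09, did not pass (limma adjusted p = 0.175 and 0.224), although neither in-flight group overlapped ground. RCA was at the same value in both in-flight groups within its spread, whereas LHB1B2 differed most there. RCA held the identical value of 8.2748 on first-actuated replicates 2 and 3 and last-actuated replicate 2. PRK (AT1G32060), the phosphoribulokinase gene, had differences of -0.75 ± 0.21 and -0.81 ± 0.21 that did not pass either (limma adjusted p = 0.0733 and 0.102). Both passed without ground replicate 3 (adjusted p = 0.00996 and 0.0122) and with a replicate block. Its ground arrays ranged from 2.37 to 3.26, all under the array medians, which leaves the size of its difference uncertain. SBPASE (AT3G55800), a Calvin cycle phosphatase gene, differed from ground by 0.07 and -0.11.

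Of the chlorophyll synthesis genes, CHLM (AT4G25080), a methyltransferase gene of the magnesium branch, stood at 7.08 to 7.28 on the ground, 6.60 to 6.999 in first-actuated and 7.03 to 7.41 in last-actuated roots. Its order resembled that of PSAN, with first-actuated roots lowest. The differences, -0.37 ± 0.13 from ground to first-actuated and 0.38 ± 0.13 from first-actuated to last-actuated, did not pass (limma adjusted p = 0.149 and 0.124). PORB (AT4G27440), a protochlorophyllide oxidoreductase gene, held the identical value of 3.08 on 7 of the 9 arrays, below the array medians, and stood at 3.64 on first-actuated replicate 1.

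**Figure D2:**
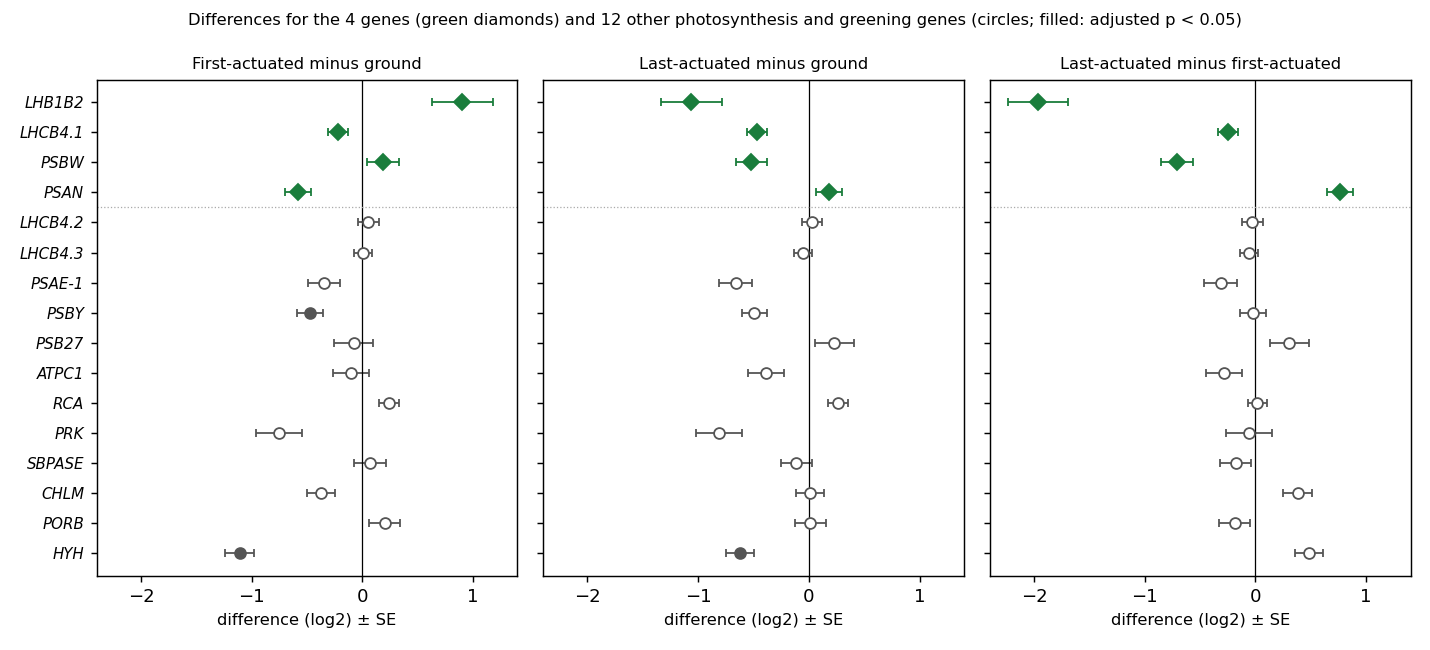
Differences in log2 (horizontal axis, bars 1 SE of the limma fit) for the 4 members, as green diamonds with no test, and for 12 other genes of photosynthesis and greening, as circles filled where the adjusted p was under 0.05. The spread of the diamonds in the last panel, from -1.96 to 0.76, is not seen in the circles. The members were chosen with these values known, and 7 of the 12 circle genes lay above the median of the probe set means. The filled circles are HYH in both comparisons with ground and PSBY in the first.

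The genes in the chloroplast genome include those of the photosystem core subunits, the partners of these nuclear subunits. All 63 with a probe set of their own were taken, whatever their function. Of these 63 genes 0 were called by limma in any comparison. Of all probe sets tested, 2.25% rose and 2.64% fell in first-actuated roots, and 0.927% rose and 0.881% fell in last-actuated roots, against ground. Between the in-flight groups 6.73% were called. Unadjusted p was under 0.05 for 10, 8 and 4 in first-actuated against ground, last-actuated against ground and last-actuated against first-actuated. These were 15.9%, 12.7% and 6.35% of the 63, where 18.4%, 13.0% and 19.6% of all probe sets tested had such a p. Their medians were 0.10, 0.09 and 0.00. Positive and negative differences numbered 53 and 10, 45 and 18, and 30 and 33 in the same order. The share of positive differences over all probe sets was not counted. All 63 genes were read on the same arrays, so their signs are not independent results. The arrays did not overlap in 15, 23 and 7 of the 63 (23.8%, 36.5% and 11.1%), against the 20.4%, 16.6% and 21.8% of all probe sets given above.

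Nuclear photosynthesis genes can be read as a sign of greening or of shoot tissue among the roots, so markers of both organs were set beside them. Of 15 shoot markers 5 were measured: FMA, SPCH and MUTE of the stomatal lineage, YAB3 of leaf polarity and CLV3 of the shoot meristem. All 5 lay between 1.77 and 2.69 on every array, below the array medians, and 0 were called by limma in any comparison, with 0 at an unadjusted p under 0.05. Their summed linear level was 20.5 to 21.8 on the ground arrays, 21.9 to 23.6 on the first-actuated and 21.4 to 23.6 on the last-actuated arrays. Probe sets this dim could not show whether a small share of shoot tissue was present or differed between groups.

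The root markers measured were above the array medians on every array. PYK10 (AT3G09260), the abundant beta-glucosidase gene of root endoplasmic reticulum bodies, stood at 12.35 to 12.42 on the ground, 12.36 to 12.45 in first-actuated and 12.09 to 12.36 in last-actuated roots. EXPA7 (AT1G12560), an expansin gene of root hairs, stood at 5.09 to 5.54, 4.53 to 4.87 and 5.02 to 5.51 in the same order. First-actuated EXPA7 arrays were the 3 lowest, as for PSAN and HYH, but the differences of -0.59 ± 0.15 from ground and 0.58 ± 0.15 to last-actuated roots did not pass (limma adjusted p = 0.0584 and 0.0527). Of 18 root markers these were the 2 measured, and the part of tissue make-up in the values of the 4 members was not tested beyond these markers. Green hypocotyl and cotyledon tissue had no marker of its own here besides the photosynthesis genes.

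**Figure D3:**
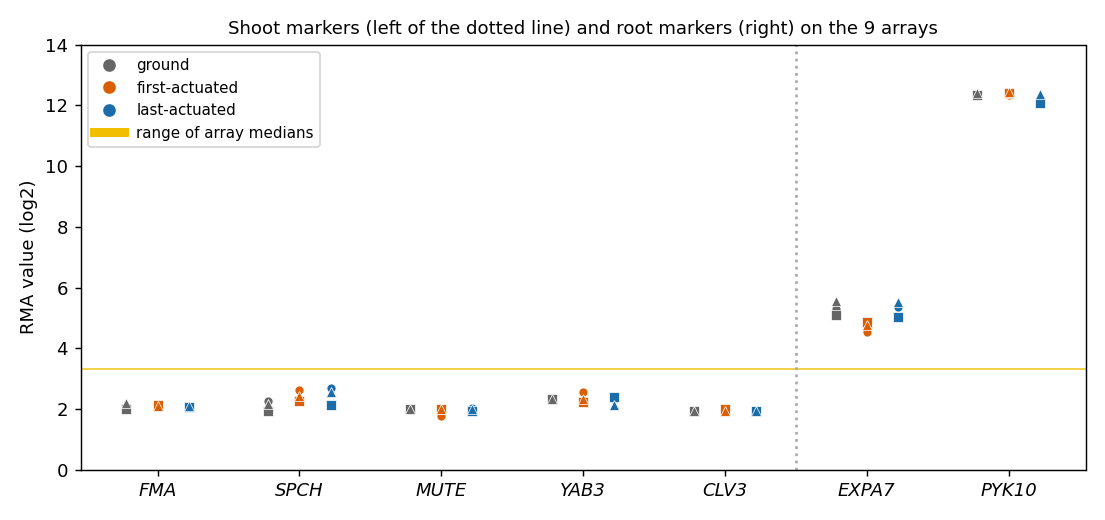
RMA values (log2, vertical axis) of 5 shoot markers and 2 root markers on the 9 arrays, coloured by group, with the narrow band marking the array medians of 3.27 to 3.35. The shoot markers stay under the band in every group and the root markers stay above it.

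Genes whose profile over the 9 arrays was most like that of the members were sought among 2249 other genes with an SD of at least 0.3. The profile used was the mean of the 4 members, each centred on its own mean. It follows LHB1B2 most (Pearson r = 0.92 over 9 arrays), then PSBW (0.844) and LHCB4.1 (0.766), and runs against PSAN (-0.649). The 6 genes most like it were AT3G49330 (r = 0.947), AT3G49720, AT5G35970, AT1G50740, AT2G28870 and AT3G50400 (r = 0.909). All 6 were lowest in the last-actuated roots, without overlap with either other group. AT3G49330 for example stood at 4.15 to 4.90 on the ground, 4.57 to 5.20 in first-actuated and 2.91 to 3.54 in last-actuated roots.

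The 3 genes most opposite to it were MGL (AT1G64660), the methionine gamma-lyase gene (r = -0.957), WRKY29 (AT4G23550), a transcription factor gene (r = -0.951), and AT5G04840 (r = -0.951). WRKY29 stood at 8.72 to 8.95 on the ground, 8.31 to 8.70 in first-actuated and 9.72 to 10.06 in last-actuated roots. The 3 genes most like LHB1B2 alone were AT5G42860 (r = 0.959), AT5G47070 (r = 0.945) and AT3G57010 (r = 0.935). As in LHB1B2, each of the 3 was highest in first-actuated roots on replicate 2. AT5G42860 held the same value of 5.6837 on all 3 ground arrays. The 9 arrays share 3 tubes, so these correlations largely repeat the differences between 3 groups. They are descriptions of likeness among many genes compared.

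**Figure D4:**
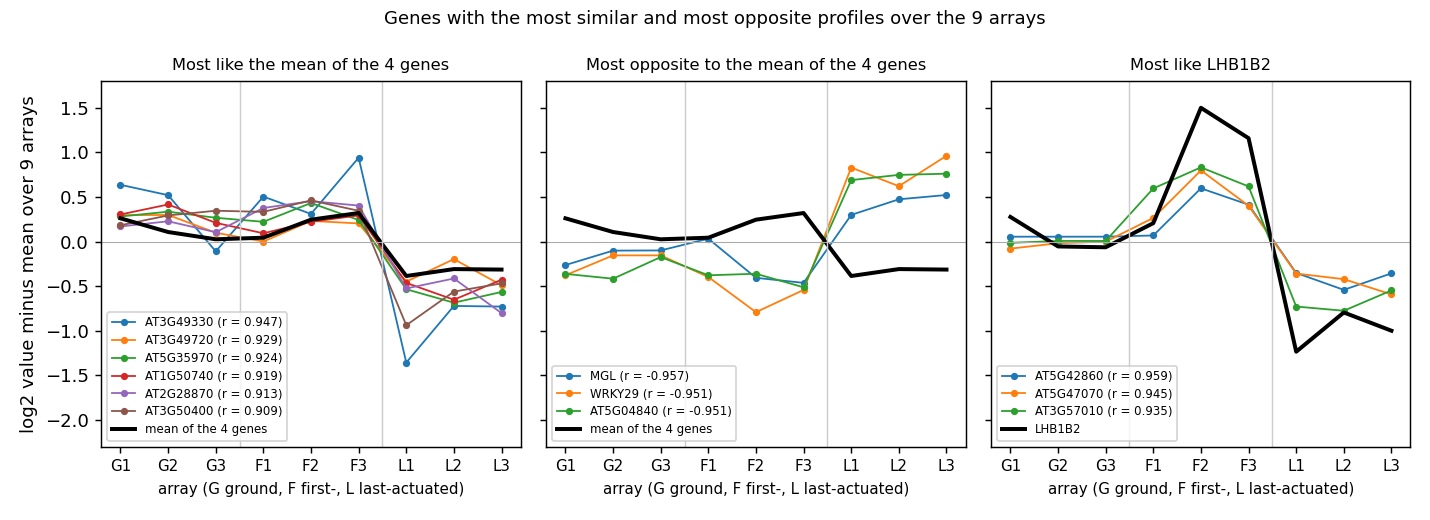
Log2 value minus the gene's own mean (vertical axis) on ground (G), first-actuated (F) and last-actuated (L) arrays for the genes most like and most opposite to the mean of the 4 members and most like LHB1B2, with the compared profile in black. The genes most like the mean drop in the last-actuated arrays, and those most like LHB1B2 also peak on first-actuated replicate 2.

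The gene before PSAN in the RefSeq order, AT5G64030, stood at 5.03 to 5.17 over the 9 arrays, with differences of 0.01 and -0.06 from ground and -0.07 between the in-flight groups. The gene before PSBW, AT2G30560, stood at 1.74 to 1.87, below the array medians. No other direct neighbour of the 4 members had a probe set of its own.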

How the data were processed

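RNA of 9 root samples was hybridised to 1-colour Affymetrix AraGene 1.0 ST arrays. The authors deposited log2 values, for which the submitters' processing notes name RMA and the oligo package, beside limma, R 4.0.0 and TAIR10. RMA as usually run includes quantile normalization, which removes a change shared by most transcripts. No detection call, slide or scan date entered this work, signal over background was therefore unknown, and the number of arrays limits the precision. Of 38408 probe sets, 16722 were paired with exactly 1 gene by the platform annotation, 759 with several and 20927 were unnamed here. Symbols were updated by gene identifier from the RefSeq table of assembly TAIR10.1 (16574 matched), whose coordinates served only to order genes for the neighbours.

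The 17481 named probe sets (1 or several genes) entered limma 3.58.1 in R 4.3.3 (lmFit, eBayes) with all 9 arrays and no batch term, without a filter on low values. Calls used a Benjamini-Hochberg adjusted p under 0.05 in each comparison. The fit was tested on simulated data with independent noise on each array and no tube effect. That test cannot show how the fit behaves where tubes differ. Members and gene lists were chosen with earlier results of these data known. Where a gene of a list had several probe sets, the one of highest mean was taken. The list drawn from words in gene names added 0 genes. The text names the members, the listed pathway genes and markers measured, and the genes of highest and lowest correlation with the members. RefSeq neighbours were added after the values were seen. Promoter motifs were planned but no promoter sequence was used here. Alternatives changed the groups fitted, the probe sets tested, a filter at the median of the probe set means, the variance trend, centring, quantile normalization, a replicate block and single arrays left out. Replicate numbers did not pair the arrays: deviations of same-numbered arrays from their group means correlated at -0.119 to 0.057.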

Additional observations from a re-analysis of the deposited data

Results flagged for a closer look

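LHB1B2 lay above the ground mean on each first-actuated array and below it on each last-actuated array. The 2 in-flight groups thus lay on opposite sides of the mean of the same ground arrays, although first-actuated and ground arrays overlapped. The difference between last-actuated and first-actuated roots was -1.96 on the log2 scale. PSAN did the reverse, below the ground mean on each first-actuated array and above it on each last-actuated array, with a difference of 0.76. Its last-actuated and ground arrays overlapped. For both genes the difference was not tested, since they were chosen with these values known. The nearest arrays lay close to the ground mean: 7.154 against 6.999 for LHB1B2 on first-actuated replicate 1, and 5.970 against 5.965 for PSAN on last-actuated replicate 2. The PSAN mean of last-actuated roots was above ground by 0.18, and by 0.07 without last-actuated replicate 3.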

How the results depend on the processing

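Under centring, repeated quantile normalization and single arrays left out, the difference between last-actuated and first-actuated roots ranged from -2.34 to -1.69 for LHB1B2, -0.29 to -0.21 for LHCB4.1, -0.84 to -0.64 for PSBW and 0.65 to 0.85 for PSAN. Leaving out 1 array of 3 cannot move such a difference by more than the SD of the groups, so these ranges do not test stability. Under centring, an alternative chosen after seeing the data for this count, last-actuated and ground arrays did not overlap in 4 members instead of 3. The count of called probe sets was 855 for first-actuated against ground, 512 when only those groups were fitted and 549 to 807 with single arrays left out. It fell to 549 without ground replicate 1 and 557 without ground replicate 2. For last-actuated against ground it was 316, and 179 to 333 with single arrays left out, with 202 when ground replicate 2 was dropped and 179 and 182 when last-actuated replicates 2 and 3 were. Between the in-flight groups it was 1177, 1794 over all 38408 probe sets, and 724 to 1119 with single arrays left out, the lowest without last-actuated replicate 3. Of the 12 other pathway genes, the calls for first-actuated against ground numbered 1 with only those groups fitted, 1 over all probe sets and 1 to 3 with single arrays left out. For last-actuated against ground they numbered 0, 0 and 0 to 3. Among probe sets above the median, which held 7 of the 12 genes, they numbered 3. Between the in-flight groups they numbered 1 of those 7 above the median and 0 to 1 with single arrays left out, the gene gained being HYH. With fewer arrays, groups or more probe sets the fit has fewer degrees of freedom or a longer adjustment; the cause of each change was not tested. The replicate numbers share only a number, and with a replicate block the counts were 723, 247 and 1035 probe sets and 2, 1 and 0 pathway genes. Under that block PRK was called in both comparisons with ground (adjusted p = 0.0168 and 0.0211), while PSBY (adjusted p = 0.0603) and the last-actuated difference of HYH (adjusted p = 0.0916) were not.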
